A study of Mus musculus with 7 samples.

Results

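The Sprr2 genes of the mouse encode small proline-rich proteins, and 9 of them were followed here through 7 QuantSeq libraries of mouse uterus. The members were chosen by symbol alone: Sprr2a1, Sprr2b, Sprr2d, Sprr2e, Sprr2f, Sprr2g, Sprr2h, Sprr2i and Sprr2k. All 9 are rows of the deposited tables, among 23282 rows with a gene symbol, and 6 of the 9 had at least 1 count in some library.

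SPRR proteins are short, rich in proline and glutamine, and are known as building blocks of the cornified envelope, the protein shell that transglutaminases cross-link beneath the membrane of squamous cells. Their genes lie side by side in the epidermal differentiation complex. In the mouse uterus, which is lined by a simple epithelium, Sprr2 genes are known to be induced in that epithelium by estrogen, and in other mucosae by interleukin 13 and STAT6.

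The study asked which genes respond when CXCL12, a chemokine that signals through CXCR4 and CXCR7, is placed into the uterine cavity. Female C57BL/6 mice, 6 weeks old by the study's methods, received 100 ng of recombinant human CXCL12 in 30 µl of saline in one uterine horn, with saline in the other horn as the control, and uterine tissue was taken 3 or 8 days later. There were 2 saline libraries (saline-1 and saline-2), 2 of CXCL12 Day 3 (Day 3-1 and Day 3-2) and 3 of CXCL12 Day 8 (Day 8-1, Day 8-2 and Day 8-3). All groups thus share the strain, the surgery and the saline vehicle. The labels give neither a day for the saline libraries nor the stage of the estrous cycle, and do not say that the libraries came from separate animals, so the p-values below measure the spread between these libraries only.

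QuantSeq reads the 3′ end of each polyadenylated transcript, so a level is given as CPM, the counts of a gene scaled to a common library total, without division by transcript length. Totals were 6908790 to 12308982 counts in the 6 libraries with raw counts. Day 3-1 holds log2 values of normalized counts, and its CPM were obtained by undoing the logarithm. Whole uterine RNA was recognisable by the stromal gene Dcn, at 2983 to 6478 CPM, and by the simple-epithelium keratins Krt8 and Krt18, at 58.2 to 179 and 111 to 184 CPM. Day 8-1 carries Day 8 in its label, while the name of its deposited table carries Day 3. It was kept at Day 8 by its label, and results are given with and without it, since it held the highest level of the Day 8 libraries for every detected Sprr2 gene. Leaving out the highest library must lower the Day 8 level, so the fits without it are no separate evidence of a fall.

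The 9 members lie on the forward strand of chromosome 3 within 218.1 kb, between chr3:92215799-92221911 (Sprr2a1) and chr3:92432582-92433925 (Sprr2k) in GRCm38, the build that the labels call mm10. By GENCODE M21, each has its coding sequence within a single exon, of between 204 and 324 coding bases. Sprr2f, at chr3:92365187-92366442, has 2 exons and 228 coding bases, and lies 149.4 kb from the start of Sprr2a1. Sprr2g, at chr3:92373915-92375229, is the next gene and is annotated as a polymorphic pseudogene. Of the copies that are not members, Sprr2a2, at chr3:92215920-92256724, overlaps Sprr2a1, and Sprr2a3, at chr3:92285417-92291405, lies between Sprr2a1 and Sprr2b.

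Promoter windows from RefSeq (GRCm38.p6, 250 bases before to 50 after each start) were found for 8 of the 9 members. The 200 bases before the start are shown for Sprr2f, Sprr2b and Sprr2e, which were detected, and for Sprr2i, Sprr2h and Sprr2a1, which had 0 counts in every library, so that the windows of detected and undetected genes can be compared. Capitals mark an AP-1 site (TGANTCA) and a TATA box (TATAAA).
Sprr2f (chr3:92364987-92365186, forward strand): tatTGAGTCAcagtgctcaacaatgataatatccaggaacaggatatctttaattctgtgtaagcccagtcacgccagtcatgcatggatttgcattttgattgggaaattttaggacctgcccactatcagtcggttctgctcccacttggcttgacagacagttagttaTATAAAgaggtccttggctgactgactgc
Sprr2b (chr3:92316505-92316704, forward strand): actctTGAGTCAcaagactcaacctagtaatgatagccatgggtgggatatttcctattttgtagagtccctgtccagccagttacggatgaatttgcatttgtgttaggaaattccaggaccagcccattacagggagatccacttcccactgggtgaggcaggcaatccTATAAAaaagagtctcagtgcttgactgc
Sprr2e (chr3:92351943-92352142, forward strand): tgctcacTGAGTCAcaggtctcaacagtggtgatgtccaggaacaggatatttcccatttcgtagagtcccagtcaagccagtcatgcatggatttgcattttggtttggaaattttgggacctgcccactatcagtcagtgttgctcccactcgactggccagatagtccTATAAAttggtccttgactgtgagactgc
Sprr2i (chr3:92407791-92407990, forward strand): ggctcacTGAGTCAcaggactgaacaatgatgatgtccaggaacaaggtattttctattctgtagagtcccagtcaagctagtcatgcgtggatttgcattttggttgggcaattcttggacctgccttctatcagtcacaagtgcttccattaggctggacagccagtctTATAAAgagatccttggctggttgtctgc
Sprr2h (chr3:92385485-92385684, forward strand): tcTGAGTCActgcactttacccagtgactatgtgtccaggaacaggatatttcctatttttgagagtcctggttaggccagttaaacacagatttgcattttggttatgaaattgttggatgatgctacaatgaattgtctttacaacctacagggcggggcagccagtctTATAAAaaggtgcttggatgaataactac
Sprr2a1 (chr3:92215635-92215834, forward strand): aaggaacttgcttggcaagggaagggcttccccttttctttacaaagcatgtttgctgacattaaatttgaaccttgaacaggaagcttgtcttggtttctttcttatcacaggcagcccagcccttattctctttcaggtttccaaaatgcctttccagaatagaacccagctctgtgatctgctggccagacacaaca

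With the base before the start counted as -1, the AP-1 letters began at -197 in Sprr2f, -195 in Sprr2b, -193 in Sprr2d, Sprr2e and Sprr2i, and -198 in Sprr2h. Sprr2k held the letters at both -196 and -182. The TATA box began at -29 in all 7 of these genes. Both were searched on both strands: 7 of the 8 member windows held the AP-1 letters, against 7.81% of the 32851 windows in the table, and 7 of 8 held the TATA box, against 13.62%. The window of Sprr2a1 held neither. Its 200 bases shown are the same as those of Sprr2a2, a copy with counts, so Sprr2a1 is no sure case of an undetected gene. The palindromic estrogen response element (GGTCANNNTGACC) was in 0 of the 8 windows, against 0.07% of all windows, and CACCC, the core bound by Klf factors, was in 3 of 8, against 57.52%. The letters therefore did not separate the detected members from those at 0: Sprr2h and Sprr2i carried the same AP-1 and TATA letters at nearly the same distance as Sprr2f.

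Because unique and multiple alignments were both counted, reads of one gene could be assigned to another. In the last 400 bases of the GENCODE transcripts, each stretch of 75 bases, the read length, was compared between genes. For Sprr2b, Sprr2d, Sprr2e, Sprr2f, Sprr2g, Sprr2h, Sprr2i and Sprr2k, 0.0% of these stretches occurred in another gene. With up to 3 mismatches allowed, 0.6% of the stretches of Sprr2f matched Sprr2i, and 30.1% of those of Sprr2b matched Sprr2a2. Sprr2a1 was the exception, since 100% of its stretches were also in Sprr2a2. The 0 counts of Sprr2a1 are therefore uncertain, as its reads and those of Sprr2a2 cannot be told apart by these letters, and Sprr2a2 did have counts.

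Sprr2f was the leading member in every library. Its counts were 2191 in saline-1 and 2344 in saline-2, 5412 in Day 3-2, and 987, 40 and 88 in Day 8-1, Day 8-2 and Day 8-3, beside a normalized count of 6760 in Day 3-1. These were 317 and 247 CPM in saline, 614 and 543 CPM at Day 3, and 103, 3.25 and 8.85 CPM at Day 8. Both Day 3 libraries thus lay above both saline libraries, and all 3 Day 8 libraries lay below them. The group levels were 282 ± 49.6 CPM in saline (SD, n = 2), 579 ± 50.5 CPM at Day 3 (SD, n = 2) and 38.3 ± 55.9 CPM at Day 8 (SD, n = 3). The Day 8 spread came from 1 library: Day 8-1 was 2.74-fold below the saline mean, and Day 8-2 and Day 8-3 were 86.8-fold and 31.9-fold below it. Counting error was small beside these gaps. The 95% Clopper-Pearson interval, which covers counting error only, was 96.5 to 109 CPM for Day 8-1, 2.32 to 4.43 CPM for Day 8-2 and 7.10 to 10.9 CPM for Day 8-3.

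**Figure D1:**
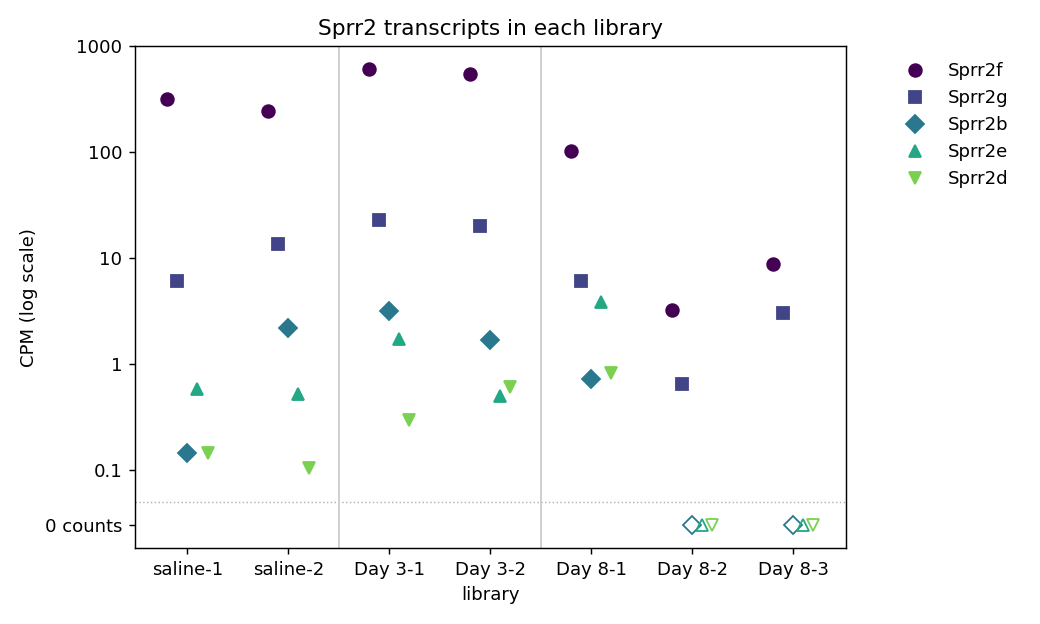
Level of the 5 Sprr2 genes with more than 3 counts in some library, in each of the 7 libraries, in CPM on a log axis. Filled symbols are single libraries and open symbols on the lowest line are libraries with 0 counts. Sprr2f sits at 317 and 247 CPM in saline, at 614 and 543 CPM at Day 3, and at 103, 3.25 and 8.85 CPM at Day 8.

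Sprr2g followed the same order at a lower level. It had 6.08 and 13.5 CPM in saline, 23.0 and 20.2 CPM at Day 3, and 6.14, 0.65 and 3.02 CPM in Day 8-1, Day 8-2 and Day 8-3. Day 3 did not overlap with saline, whereas Day 8-1 lay just above saline-1, so the Day 8 and saline groups overlapped. The group levels were 9.78 ± 5.24 CPM in saline (SD, n = 2), 21.6 ± 1.98 CPM at Day 3 (SD, n = 2) and 3.27 ± 2.76 CPM at Day 8 (SD, n = 3).

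The relation between these neighbouring genes was not constant. Sprr2f had 52.2 times the counts of Sprr2g in saline-1 and 18.3 times in saline-2. The ratio was 26.8 and 26.9 in the Day 3 libraries, and 16.7, 5 and 2.93 in Day 8-1, Day 8-2 and Day 8-3. Sprr2f made up 97.9% and 93.8% of all counts of the 9 members in saline, 95.6% and 95.9% at Day 3, and 89.8%, 83.3% and 74.6% at Day 8. In the libraries where the 9 members were lowest, Sprr2g therefore made up more of their remaining counts, at 16.7% in Day 8-2 and 25.4% in Day 8-3. These shares depend on the genes counted. With Sprr2a2 and Sprr2a3 added, Sprr2f made up 94.4% and 81.8% in saline and 82.4% and 83.6% at Day 3. At Day 8 it then made up 68.1%, 78.4% and 69.3%, so the lowest share was in Day 8-1, the Day 8 library with the highest level.

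Sprr2b, Sprr2e and Sprr2d were detected at a few counts. Sprr2b had 1 and 21 counts in saline-1 and saline-2, a normalized count of 34.6 in Day 3-1, 17 counts in Day 3-2, and 7, 0 and 0 counts at Day 8. Sprr2e had 4 and 5 counts in saline, 18.9 normalized in Day 3-1, 5 in Day 3-2, and 37, 0 and 0 at Day 8. Sprr2d had 1 count in each saline library, 3.23 normalized in Day 3-1, 6 in Day 3-2, and 8, 0 and 0 at Day 8. All 3 genes had 0 counts in Day 8-2 and Day 8-3, while Day 8-1 held the highest level of Sprr2e and of Sprr2d among the 7 libraries, at 3.85 and 0.83 CPM. A count of 0 leaves room for a level of about 3 counts, or 0.244 CPM in Day 8-2 and 0.302 CPM in Day 8-3. A level under these values could thus be missed. Sprr2b lay at 1.18 ± 1.46 CPM in saline (SD, n = 2), 2.43 ± 1.02 CPM at Day 3 (SD, n = 2) and 0.243 ± 0.421 CPM at Day 8 (SD, n = 3).

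Sprr2a1, Sprr2h and Sprr2i had 0 counts in all 7 libraries, and Sprr2k had 1 count, in Day 8-1. Across the libraries, 3 counts correspond to 0.244 to 0.434 CPM. By mean CPM the members of the saline libraries thus ranked Sprr2f, Sprr2g, Sprr2b, Sprr2e and Sprr2d, but Sprr2b and Sprr2e did not differ beyond their spread, since saline-1 had Sprr2e above Sprr2b and saline-2 the reverse. Sprr2e, at 0.553 ± 0.0369 CPM (SD, n = 2), lay above Sprr2d, at 0.125 ± 0.0279 CPM (SD, n = 2), in both saline libraries, on 4 and 5 counts against 1 and 1. At Day 8 the order below Sprr2g was Sprr2e, Sprr2d and Sprr2b, each resting on Day 8-1 alone.

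**Figure D2:**
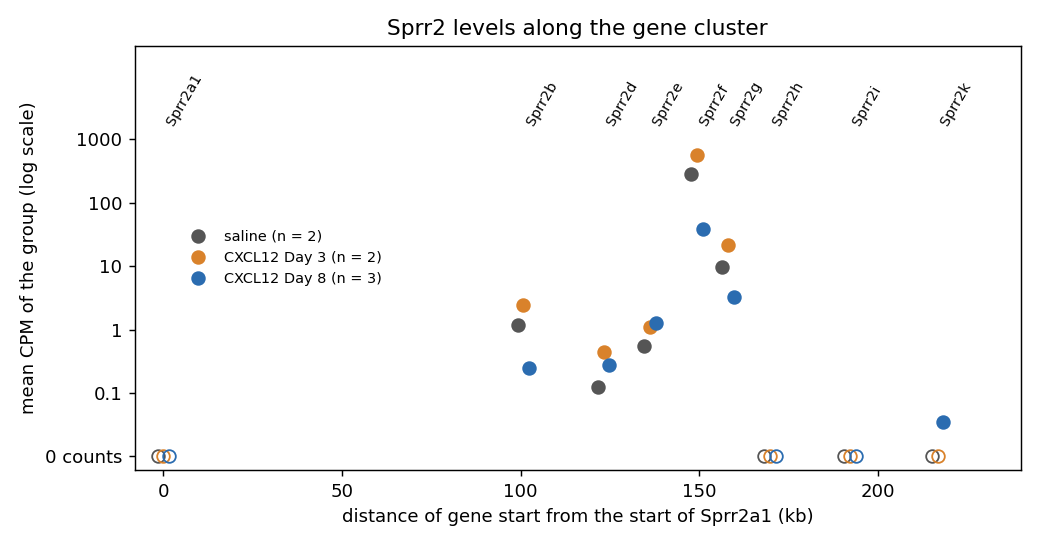
Mean level of each of the 9 Sprr2 genes in the saline, CXCL12 Day 3 and CXCL12 Day 8 libraries (CPM, log axis) against the distance of the gene's start from the start of Sprr2a1 in kb. Open symbols mark groups at 0 counts. The detected members stand next to each other from Sprr2b to Sprr2g, with Sprr2f highest at 149.4 kb, while Sprr2h and Sprr2i farther along are at 0 and Sprr2k had 1 count.

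The change between saline and Day 8 was tested with edgeR on the 6 count libraries, where 15388 rows and 4 of the 9 members (Sprr2b, Sprr2e, Sprr2f and Sprr2g) passed the filter on low counts. A member was called when it passed a fold of 2 with an unadjusted P of 0.05. For Sprr2f, edgeR gave a 5.82-fold lower level at Day 8, -2.54 on the log2 scale (SE 1.24, adjusted p = 0.956), which did not pass. The log2 fold change was -1.32 (SE 0.84) for Sprr2g, -2.05 (SE 1.72) for Sprr2b and 1.51 (SE 2.02) for Sprr2e, and none of these passed either. In all, edgeR called 0 of the 4 tested members lower, and 0 had an unadjusted P under 0.05, against 1.42% of tested rows called lower. DESeq2 also called 0 of them. Over all rows, 658 had an unadjusted P under 0.05 by edgeR, 453 were called in either direction, and 0 had an adjusted p under 0.1, where DESeq2 gave 49. Sprr2f was 1 member of the 4 whose Day 8 libraries all lay below both saline libraries, as 22.4% of tested rows did.

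The Day 8 result turned on Day 8-1. It was the highest Day 8 library for these genes, so leaving it out was bound to lower the Day 8 level. Without that library, Sprr2f fell by 5.32 on the log2 scale (SE 0.57, adjusted p = 0.0997 by edgeR), and 3 members were called lower: Sprr2f, Sprr2g, which fell by 2.24 (SE 0.81), and Sprr2b, which fell by 6.47 (SE 2.38), although the fold of Sprr2b rests on 0 counts in both remaining Day 8 libraries and is no bound. Of all 15359 rows tested without that library, 3.25% were called lower, beside 1.42% with it. Sprr2f was the 1 member that then passed the adjusted p of 0.1, among 15 rows in all. The lowest and highest values for Sprr2f over the alternatives tried were -5.32 and -1.99, all below 0.

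Day 3 was compared with saline by limma on quantile-normalized log2(normalized count + 1) values of all 7 libraries, since Day 3-1 has no raw counts. Fold changes are on this log2 scale, and those of the low members changed with the normalization: with TMM scaling in place of quantile normalization, the differences from saline were 1.92 for Sprr2b, 1.41 for Sprr2d and 0.94 for Sprr2e. Of 15800 rows tested, 5 were members. Sprr2f lay at 11.57 and 11.15 in saline and at 12.45 and 12.30 at Day 3 on this log2 scale, a difference of 1.02 (SE 1.35, adjusted p = 0.797 by limma) or 2.03-fold. limma takes one spread for all 3 groups, the Day 8 libraries included. Without Day 8-1 the difference was 1.01 (SE 0.47, adjusted p = 0.476 by limma). In a limma fit of only the saline and Day 3 libraries it was 0.97 (SE 0.24, unadjusted P = 0.0091, adjusted p = 0.589). That difference was under a fold of 2 and was not called. With all 7 libraries, Sprr2g differed by 1.53 (SE 1.01), Sprr2b by 2.30 (SE 1.47), Sprr2d by 2.23 (SE 1.33) and Sprr2e by 1.39 (SE 1.72). By limma, 0 of the 5 tested members were called higher and 0 had an unadjusted P under 0.05, against 2.09% of rows called higher. edgeR on counts estimated from the log2 values also called 0. Over all rows, limma gave 1186 with an unadjusted P under 0.05 and 0 with an adjusted p under 0.1. Sprr2f, Sprr2g and Sprr2d had both Day 3 libraries above both saline libraries, 3 of the 5 tested, as 11.9% of rows did. Sprr2d passed the filter on low values with 6 counts in Day 3-2 and 8 in Day 8-1, beside 1 count in each saline library. Its place above saline was thus partly set by the filter.

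For Sprr2f, Sprr2g and Sprr2b, the mean level lay above saline at Day 3 and below it at Day 8. Within a single fit, the difference between the times was thus bound to exceed either difference from saline. For Day 8 against saline, limma gave -4.21 for Sprr2f where edgeR gave -2.54. Sprr2f was 37.5-fold lower at Day 8 than at Day 3, or -5.23 on the log2 scale (SE 1.23, adjusted p = 0.665 by limma). Sprr2g was lower by 9.48-fold, or -3.24 (SE 0.92, adjusted p = 0.684), and Sprr2b by 11.2-fold, or -3.49 (SE 1.34, adjusted p = 0.695). These 3 of the 5 tested members were called lower, beside 2.44% of rows. The same 3 had every Day 8 library below both Day 3 libraries, as 17.6% of rows did. Sprr2b may not be a separate case, since 30.1% of its read-length stretches matched Sprr2a2 with up to 3 mismatches. The part of Sprr2a2 reads in its few counts was not tested. The difference was -1.37 (SE 1.21) for Sprr2d and -1.57 (SE 1.57) for Sprr2e, and neither passed. No member passed the adjusted p of 0.1 by limma, nor did any of the 15800 rows, of which 1120 had an unadjusted P under 0.05. Members enter this count only where they passed the filter on low values. Sprr2d, which was not called, passed on 6 counts in Day 3-2 and 8 in Day 8-1. Sprr2f, Sprr2g and Sprr2b also reached the filter outside Day 3, Sprr2b with 21 counts in saline-2 and 7 in Day 8-1.

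Sprr2f and Sprr2g were called lower at Day 8 than at Day 3 whichever library was left out, and Sprr2f ranged from -6.68 to -4.09 in these fits. Without Day 8-1, Sprr2f had a log2 fold change of -6.68 (adjusted p = 0.0034) and Sprr2g of -4.02 (adjusted p = 0.079) by limma, and Sprr2e, at -3.28 (adjusted p = 0.150), was called by the unadjusted P too, where 5.58% of rows were called lower. Day 8-1 was the highest Day 8 library for these genes, so its removal was bound to lower the Day 8 level. With counts estimated from the log2 values, edgeR gave -3.84 for Sprr2f (adjusted p = 0.556). Sprr2b was less stable, since its call was lost when either Day 3 library, Day 8-2 or Day 8-3 was left out, and also without the filter on low values and with edgeR on estimated counts. The comparisons of Day 3 and Day 8 with saline share both saline libraries, and both comparisons that involve Day 3 share its libraries, so they are not independent of each other.

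**Figure D3:**
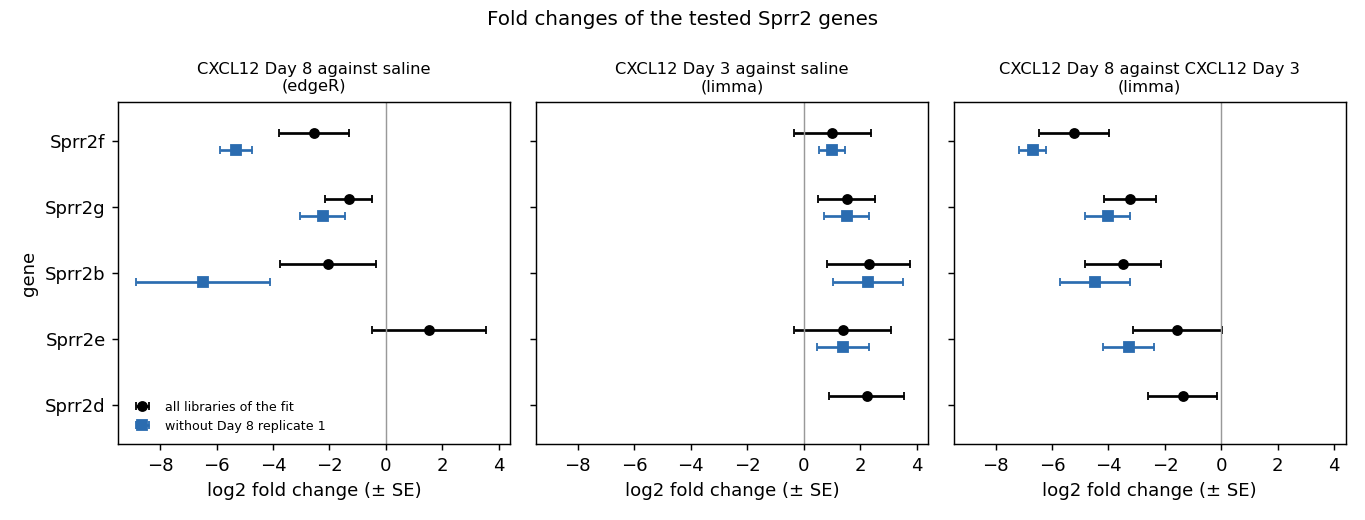
Log2 fold change of each tested Sprr2 gene in the 3 comparisons, with SE as bars, by edgeR for Day 8 against saline and by limma for the others. Black circles are fits with all libraries and blue squares are fits without Day 8-1, where a missing point was not tested. Without Day 8-1, Sprr2f moved from -2.54 to -5.32 against saline and from -5.23 to -6.68 against Day 3.

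Sprr2a2, Sprr2a3 and Sprr1a, which are no members, showed the same order between Day 3 and Day 8. Sprr2a2, one of the Sprr2a copies, a type known from the gut as an antibacterial protein, had 8.54 and 28.1 CPM in saline, 80.6 and 64.9 CPM at Day 3, and 26.6, 0.244 and 0.604 CPM at Day 8. Sprr2a3 had 3.18 and 10.6 CPM in saline, 22.6 and 19.0 CPM at Day 3, and 9.999, 0 and 0.302 CPM at Day 8. Sprr1a, a second type of small proline-rich protein, had 0.579 and 5.27 CPM in saline, 16.3 and 10.3 CPM at Day 3, and 7.50, 0.244 and 0.905 CPM at Day 8. Day 8-1 lay within the saline range for Sprr2a2 and Sprr2a3, and above it for Sprr1a, whereas it lay below both saline libraries for Sprr2f. Against Day 3, all 3 were called lower at Day 8 by limma, with log2 fold changes of -5.33 (SE 1.71) for Sprr2a2, -4.71 (SE 1.66) for Sprr2a3 and -3.40 (SE 1.44) for Sprr1a, and adjusted p of 0.692 to 0.695. Without Day 3-1, none of these 3 calls was kept, at -5.13, -4.54 and -3.03, and none of the 3 was called by edgeR on estimated counts. Sprr3, the fourth of the 4 tested among 8 other SPRR genes, had 0 and 0.737 CPM in saline, 0.193 and 0 CPM at Day 3, and 0.937, 0 and 0 CPM at Day 8. Its difference between Day 8 and Day 3 was 0.30 (SE 1.43), without a call. Sprr1b and Sprr4 had 0 counts throughout.

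Most other genes of the cornified envelope had little or no RNA in these libraries. Of 39 other cornified envelope genes, 38 were in the tables, of which 24 had 0 counts in every library. At most 10 counts in every library were held by 29, all the late cornified envelope (Lce) genes among them. The rest, Ivl, Lor, Tchh, Evpl, Ppl, Scel, Krtdap, Cdsn and Csta1, had more than 10 in some library. Only 9 were tested at Day 3, with a median log2 fold change against saline of 0.39, beside 0.02 over all rows. Ppl, which encodes the plakin periplakin, was the most abundant, at 10.4 to 30.5 CPM. Between Day 8 and Day 3, Ivl (involucrin) and Krtdap were called lower, with log2 fold changes of -1.79 (SE 0.73) and -2.64 (SE 1.09), and Scel (sciellin) was called higher, by 2.55 (SE 0.66, adjusted p = 0.671 by limma), beside 2.34% of rows called higher. Scel was also higher at Day 8 than in saline, by 1.94 (SE 0.79, adjusted p = 0.956 by edgeR). It is thus an envelope gene whose change was opposite in sign to that of Sprr2f. Among the 8 transglutaminases, Tgm2 led with 234 to 407 CPM and 0 were called in any of the 3 comparisons, while Tgm1, the form that builds the envelope in skin, had at most 10 counts in every library. The unadjusted P of 0.05 was also missed by Tgm2 in each comparison, with log2 fold changes of 0.25 (SE 0.31) at Day 8 and 0.01 (SE 0.30) at Day 3 against saline.

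Whether squamous tissue of the cervix or vagina entered the samples was looked at through 15 markers. Their summed level was 29.4 to 45.5 CPM in saline, 43.0 to 48.1 CPM at Day 3 and 25.8 to 35.9 CPM at Day 8, of which Krt10 had 14.0 to 25.5 CPM. Krt6a and Dsg1a had 0 counts in every library, 8 of the 15 had at most 10 counts in every library, and Trp63 had at most 8 counts. Among the basal keratins, Krt5 had 0 to 1.81 CPM, Krt14 0 to 2.75 CPM and Krt15 0.201 to 7.04 CPM. Serpinb5 was the 1 marker called, with a log2 fold change of -4.0 between Day 8 and Day 3 (SE 1.45, adjusted p = 0.695 by limma), with 13.9 and 14.3 CPM at Day 3 and 4.79, 0.0812 and 1.01 CPM at Day 8.

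The 12 markers of the simple epithelium that lines the uterus summed to 958 and 1343 CPM in saline, 1317 and 1324 CPM at Day 3, and 1314, 626 and 1164 CPM in Day 8-1, Day 8-2 and Day 8-3. The saline libraries overlapped with both other groups, and the 3 Day 8 libraries lay below both Day 3 libraries, Day 8-1 only just. Of the 12, the tight junction gene Cldn3 was called higher at Day 8 than in saline, by 1.57 on the log2 scale (SE 0.54, edgeR), and than at Day 3, by 1.23 (SE 0.45, limma), and the keratin Krt7 was called lower at Day 8 than at Day 3, with -1.25 (SE 0.50, limma). Sprr2f was also set against Epcam, an adhesion molecule of simple epithelia, and against Krt8 within each library. The ratio of Sprr2f to Epcam counts was 3.63 and 1.65 in saline, 4.17 and 3.65 at Day 3, and 0.83, 0.050 and 0.093 at Day 8. The order of the groups was thus the same as for CPM, and the groups again did not overlap, although Day 3-2 and saline-1 were nearly equal. The ratio to Krt8 was 3.10 and 1.48 in saline, 3.74 and 3.04 at Day 3, and 0.636, 0.0559 and 0.0819 at Day 8. Here Day 3-2 lay below saline-1, so Day 3 and saline overlapped, whereas all Day 8 libraries lay below the others. Epcam itself differed by -0.07 (SE 0.42) between Day 8 and saline by edgeR and by -0.58 (SE 0.35) between Day 8 and Day 3 by limma, on the log2 scale. In whole tissue, fewer Sprr2f-expressing cells and less Sprr2f RNA per cell cannot be told apart.

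Steroid-responsive uterine genes moved with the family in part. The 11 estrogen-induced genes summed to 1876 and 1170 CPM in saline, 1351 and 1313 CPM at Day 3, and 1175, 614 and 764 CPM at Day 8. Between Day 8 and Day 3, 4 of the 11 were called lower by limma and 0 higher: Lcn2 (lipocalin 2), which fell by 3.83, Muc1, an epithelial mucin, which fell by 1.56, and the arginine deiminases Padi1 and Padi2, which fell by 2.58 and 1.80 on the log2 scale. In this comparison 2.44% of all tested rows were called lower. Pigr, Aqp5, Greb1 and C3 of the list went the other way, by 1.14, 0.56, 0.39 and 0.26, without a call. The list's median was -0.44, beside 0.00 over all rows. Against saline, 1 of the 11 was called lower at Day 8, the secreted iron-binding protein Ltf, with a log2 fold change of -1.93 (SE 0.65, adjusted p = 0.956 by edgeR), but saline-1 alone was high, with 190 CPM beside 31.9 CPM in saline-2. The progesterone receptor Pgr had 183 to 870 CPM and passed no test. The 12 symbols listed for progesterone-induced genes name Irg1 also as Acod1, and the 11 other than Acod1 were in the tables. They summed to 132 and 188 CPM in saline, 101 and 126 CPM at Day 3 and 146 CPM in Day 8-1, but to 1064 and 1636 CPM in Day 8-2 and Day 8-3, the libraries with the lowest Sprr2f. The implantation serine peptidase Prss29 led them, with 627 and 905 CPM in Day 8-2 and Day 8-3 and at most 0.579 CPM elsewhere. At Day 8 against saline, 5 were called higher and 0 lower by edgeR, where 1.53% of tested rows were called higher: Prss28, Prss29, Cyp26a1, Calca and Il13ra2. The part of steroid state in the Sprr2 result was not tested.

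**Figure D4:**
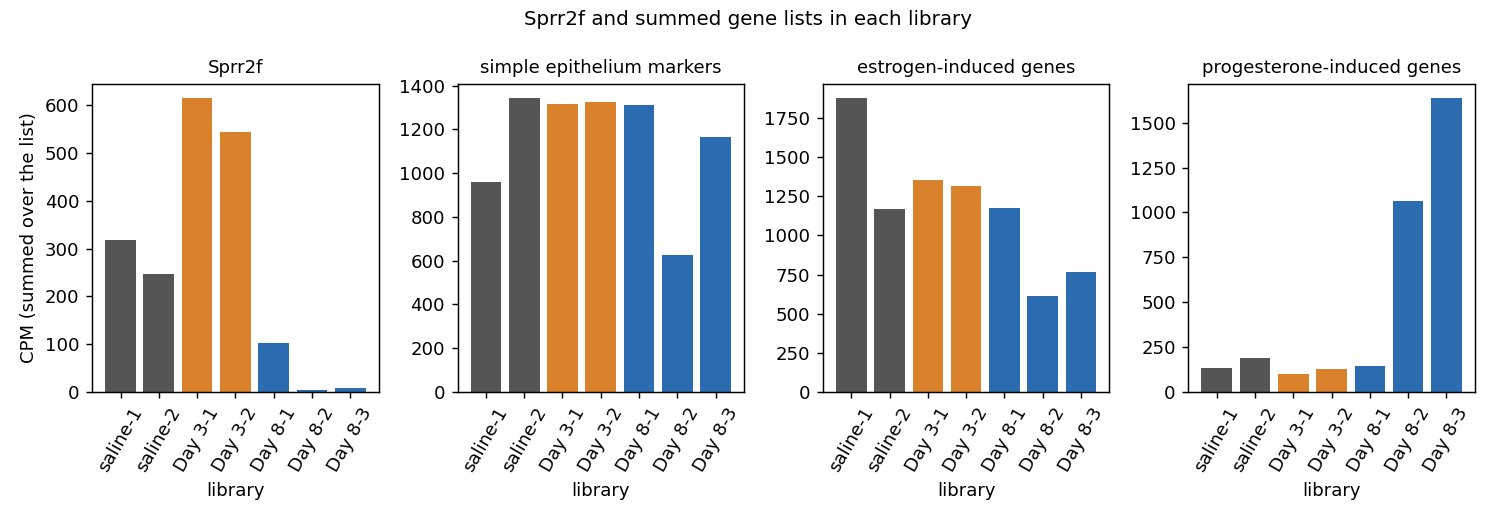
CPM of Sprr2f, and summed CPM of the simple epithelium markers, the estrogen-induced genes and the progesterone-induced genes, in each library (grey, saline; orange, CXCL12 Day 3; blue, CXCL12 Day 8). Each panel has its own axis, which starts at 0. Day 8-2 and Day 8-3, at 3.25 and 8.85 CPM of Sprr2f, have 1064 and 1636 CPM of the progesterone-induced genes.

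Regulators known to act on SPRR promoters all had counts in some library and were mostly not called. Grhl3 and Fosl1 had at most 10 counts in every library and were not tested. The estrogen receptor Esr1 had 228 to 352 CPM, with a log2 fold change of 0.02 (SE 0.31) between Day 8 and saline by edgeR, and passed no test. Of 13 such factors, 11 were tested, and 1 was called: Jun, an AP-1 subunit, which was higher at Day 8 than at Day 3 by 1.18 on the log2 scale (SE 0.48, adjusted p = 0.695 by limma). Jun had 197 and 79.3 CPM in saline, 53.4 and 63.8 CPM at Day 3, and 70.3, 167 and 180 CPM at Day 8. Klf4, a factor of barrier epithelia, had 127 and 273 CPM in saline, 308 and 289 CPM at Day 3, and 278, 96.3 and 111 CPM at Day 8, without a call. Elf3, an epithelial ETS factor picked here after its values were seen, had 17.9 and 108 CPM in saline, 116 and 112 CPM at Day 3, and 78.5, 7.39 and 19.0 CPM at Day 8, with a Day 8 to Day 3 difference of -2.29 (SE 1.03, not called by limma). Among 11 genes of interleukin 4 and 13 signalling, Clca1, a secreted protein of mucous cells, was called lower at Day 8 than at Day 3, at -5.27 on the log2 scale (SE 2.09), and Jak1, a kinase of these receptors, was called lower at Day 3 than in saline, at -1.0 (SE 0.40), as 2.75% of tested rows were. Il4 and Il13 themselves had at most 10 counts in every library.

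Markers of other cell types and of neighbouring organs also varied between libraries. The 7 ovarian markers summed to 188 and 1137 CPM in saline, 4.93 and 7.12 CPM at Day 3, and 80.8, 3616 and 9.66 CPM at Day 8. Day 8-2 and Day 8-3, which shared a low Sprr2f, were thus the highest and the third lowest library in ovarian markers. At Day 3, 4 of the 7 were called lower than in saline by limma (Inha, Cyp17a1, Hsd3b1 and Cyp11a1), and Cyp17a1 and Hsd3b1 were called higher at Day 8 than at Day 3. The 5 oviduct markers summed to 662 and 678 CPM in saline, 687 and 798 CPM at Day 3, and 330, 701 and 245 CPM at Day 8. The stromal markers summed to 6953 and 7352 CPM in saline, 8857 and 9748 CPM at Day 3 and 5715 to 11368 CPM at Day 8. The 5 adipocyte markers summed to 898 and 2587 CPM in saline, 2602 and 277 CPM at Day 3 and 188 to 333 CPM at Day 8, and all 5 were called lower at Day 8 than in saline by edgeR. At Day 8 against Day 3, 2 of these 5 (Adipoq and Lep) were called lower by limma. Neutrophil markers summed to 154 and 217 CPM in saline, 136 to 141 CPM at Day 3 and 100.2 to 170 CPM at Day 8. Of these, 3 of the 5 tested (Cxcr2, S100a8 and S100a9) were called lower at Day 8 than in saline. Mpo and Retnlg went the other way, by 2.47 (SE 1.24) and 0.89 (SE 0.35) on the log2 scale, without a call. At Day 3 against saline, S100a8 and S100a9 were called lower, at -2.86 and -2.73, and Mpo was called higher, at 3.97. The 5 myometrial markers summed to 1546 to 2541 CPM in saline, 2627 to 3087 CPM at Day 3 and 1581 to 3776 CPM at Day 8, with Des and Actg2 called higher at Day 8 than in saline and Actg2 also at Day 3. Eosinophil markers summed to 55.4 to 57.2 CPM in saline, 42.2 to 57.4 CPM at Day 3 and 36.5 to 244 CPM at Day 8, with Prg2 and Ccr3 called higher at Day 3 than in saline and 0 called at Day 8. Over all tested rows, the shares called lower and higher were 1.42% and 1.53% at Day 8 against saline. They were 2.75% and 2.09% at Day 3 against saline, and 2.44% and 2.34% at Day 8 against Day 3. The part of tissue composition in the Sprr2 result was not tested.

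The genes whose pattern was most like the summed Sprr2 level were found by the root-mean-square difference of log2 values, each centred on its mean over the 7 libraries, among 15795 tested rows that are no members. The 10 closest lay between 0.84 and 1.11, where the median row lay at 2.70. They were, in order, Cpn1 (carboxypeptidase N), Lcn2, Il1f6 (interleukin 36 alpha), Sprr2a3, Muc4 (a membrane mucin), Sprr2a2, Dhrs9 (a retinol dehydrogenase), Gjb2 (connexin 26), BC048679 and Clca1. Lcn2 had 113 and 197 CPM in saline, 386 and 357 CPM at Day 3, and 230, 7.47 and 8.25 CPM at Day 8. Clca1 had 96.8 and 97.9 CPM in saline, 209 and 174 CPM at Day 3, and 162, 0.487 and 1.21 CPM at Day 8. Muc4 had 8.54 and 19.2 CPM in saline, 23.8 and 17.5 CPM at Day 3, and 10.6, 0.569 and 1.51 CPM at Day 8. In all 10, Day 8-2 and Day 8-3 were the lowest libraries. Day 8-1 differed more: it stood above saline-1 and saline-2 for Lcn2 and Clca1, between them for Muc4, and below both for Il1f6, which had 3.04 and 1.47 CPM in saline and 0.521 CPM in Day 8-1. These genes were picked for their likeness over the same 7 libraries, so the likeness is a description.

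**Figure D5:**
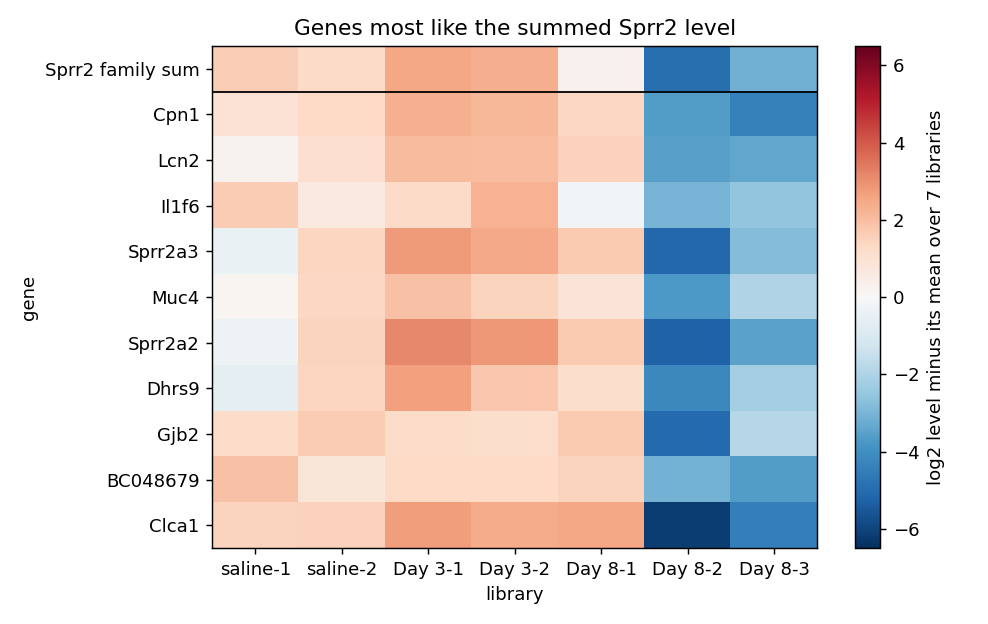
Log2 level of the summed Sprr2 genes (top row) and of the 10 genes most like it, each minus its mean over the 7 libraries, with libraries as columns. Red is above and blue below a gene's own mean. The summed Sprr2 level is at 2.53 and 2.37 in the Day 3 libraries, 0.28 in Day 8-1, and -4.89 and -3.10 in Day 8-2 and Day 8-3.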

How the data were processed

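The 7 libraries were made with the QuantSeq 3′ kit and read as single ends of 75 bases. Alignment by the authors was with Bowtie2, and Bedtools coverage of uniquely and multiply aligned reads gave the counts, which edgeR then quantile-normalized. The submitters' processing notes name mm10 and hg19, with no role. Versions and annotation are not given in the sources used here. The authors deposited read counts without normalization for 6 libraries, and log2 values of normalized counts for Day 3-1. With the logarithm undone and a factor of 1.0515 divided out, 97.1% of its 3751 low values differed from a whole number by less than 0.1. Rows with neither symbol nor value, in 6 of the tables, were dropped.

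CPM were computed over named rows. Day 8 and saline were compared with edgeR 4.0.16 (glmQLFit and glmQLFTest, TMM, filterByExpr, 3 groups, 3 residual degrees of freedom). TMM factors were 0.882 to 1.172 and the common biological coefficient of variation was 42.2%. Comparisons with Day 3 used limma 3.58.1 (eBayes with trend) on quantile-normalized log2(normalized count + 1), with a scaled value of at least 5 in at least 2 libraries. Thresholds were a fold of 2 with an unadjusted P of 0.05, or a Benjamini-Hochberg adjusted p of 0.1. Both scripts were tested on simulated data. DESeq2 1.42.0 in R 4.3.3 was an alternative.

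All 9 members were to be named, with at most 4 genes per list: those of highest mean CPM and those past the unadjusted threshold, and the 10 genes most alike. Names beyond 4 in a list were chosen after their values were seen. The members and the gene lists were chosen with earlier results of these data known.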

Additional observations from a re-analysis of the deposited data

Results flagged for a closer look

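In 3 Sprr2 genes the level differed between the Day 3 and Day 8 libraries, by the limma test of Day 8 against Day 3 at an unadjusted P of 0.05, although none passed the adjustment and no member passed against saline at either time. The saline libraries have no day in their labels, so an effect of CXCL12 and one of time cannot be told apart. The log2 fold change between the times was -5.23 for Sprr2f, -3.24 for Sprr2g and -3.49 for Sprr2b. These were 3 of the 5 tested members called lower, beside 2.44% of all tested rows. The few counts of Sprr2b may include reads of Sprr2a2, which is no member, and this was not tested. For Sprr2f, both Day 3 libraries lay above and all 3 Day 8 libraries below the saline libraries. Of all tested rows, 11.9% had Day 3 above saline and 22.4% had Day 8 below saline in this way.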

How the results depend on the processing

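The count of Sprr2 members called at Day 8 against saline, 0 as reported, was 1 with limma on quantile-normalized values, without the filter on low counts and with replicate numbers as a block. That member was Sprr2f, at -4.21, -2.53 and -3.59 on the log2 scale in these settings, and the cause was not tested. Leaving out 1 library gave 0 to 3 members, and 0 to 1 with the adjusted p of 0.1, with Sprr2f at -5.32 to -1.99. For Day 3 against saline, the count of 0 was 1 in the fit of only the 2 groups, where Sprr2g passed at 1.55, and 0 to 1 when 1 library was left out. Day 8 against Day 3 gave 2 to 4 members when 1 library was left out, and 0 to 2 with the adjusted p.

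The sign turned for Sprr2e at Day 8 against saline with limma (-0.18) and at Day 8 against Day 3 with edgeR on estimated counts (0.25). Against saline at Day 8 it also turned for Sprr1a with limma (-0.21), without saline-1 (-0.62) and without Day 8-1 (-2.21), and without saline-2 for Sprr2b (0.99), Sprr2a2 (0.49) and Sprr2a3 (0.49). Leaving out 1 library gave -6.47 to 0.99 for Sprr2b, -5.26 to 0.49 for Sprr2a2, -5.35 to 0.49 for Sprr2a3 and -2.21 to 2.66 for Sprr1a in this comparison. The cause was not tested. With the block, the call at Day 8 against Day 3 was lost for Sprr2b (-3.09), Sprr2a3 (-4.35) and Sprr1a (-3.28), and 157 rows were called at Day 8 against saline, beside 453 without it. Same-numbered libraries of different groups deviated with correlations between -0.147 and -0.003 across rows, so the numbers were not taken as pairs. Over all rows, leaving out Day 8-1 gave 1027 calls at Day 8 against saline, and leaving out saline-2 gave 1527, while Day 3 against saline gave 2907 without saline-2, where the lone saline library was assumed to vary like the other groups. At 3 counts, 0.244 to 0.434 CPM, Sprr2d, Sprr2e and Sprr2b were near the limit of detection.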
